A study of Mus musculus with 6 samples.

Results

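The genes described here, 31 in number, act in the interferon response and in the sensing of double-stranded RNA. They were matched by symbol in the deposited table of 25164 genes, and all 31 were found. The study profiled whole ovaries of C57BL/6 mice at day 1 by RNA sequencing, and its title concerns Hnrnpl, a regulator of alternative splicing, in primordial follicle formation. The cKO group holds 3 libraries from mice that carry floxed Hnrnpl alleles and the Stra8-cre transgene (hnRNPL flox/flox;Stra8-cre), and the WT group holds 3 libraries from wild type mice. Stra8-cre drives Cre recombinase in germ cells, while most cells of an ovary are somatic. The protocol mentions a hormone challenge with no agent or dose named. Since the labels do not tie libraries to separate animals, p-values measure the spread between these libraries alone.

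Cells sense double-stranded RNA, a sign of viral infection or of unprocessed self RNA, through cytosolic helicases that signal by way of the adaptor Mavs to the transcription factors Irf3 and Irf7. These switch on interferon genes. Secreted interferon binds its receptors and activates a complex of Stat proteins with Irf9, which binds the interferon-stimulated response element (ISRE) and induces effector genes. The editing enzyme Adar changes adenosines in self double-stranded RNA and thereby keeps the sensors quiet.

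The response element can be read in the members' own promoters. RefSeq promoter sequences (GRCm38.p6) were at hand for 23 of the 31 genes, in 28 promoters. The ISRE was searched on both strands of the 250 bases upstream of each start site as GAAA, then 2 bases of any kind (NN), then GAAAC. It occurred in 6 of 28 member promoters (21.4%), those of Isg15, Ifit1, Ifit3, Bst2, Ddx60 and Stat2, and in 0.685% of all 32851 promoters in the table. The gamma-activated site, searched as TTCNNNGAA, which reads alike on both strands, occurred in 3 member promoters (10.7%), those of Irf1, Bst2 and Ifit2, and in 7.02% of all promoters. In Bst2 that site overlaps the response element. A match describes letters and not binding. The following 60-base stretches are printed 5′ to 3′ on the gene's strand because genes with such elements lay at both ends of the expression range. Capitals mark the ISRE in the first 4 and the gamma-activated site in Irf1. In Isg15 a pair of ISRE matches overlap, and in Ifit1 and Ifit3 the matches are on the opposite strand and appear as the reverse complement.
Isg15 (chr4:156200859-156200918, minus strand): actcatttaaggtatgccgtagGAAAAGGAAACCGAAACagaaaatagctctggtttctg
Ifit1 (chr19:34640769-34640828, plus strand): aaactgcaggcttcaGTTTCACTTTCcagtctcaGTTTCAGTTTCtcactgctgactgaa
Ifit3 (chr19:34583364-34583423, plus strand): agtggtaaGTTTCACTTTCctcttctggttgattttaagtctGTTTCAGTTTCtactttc
Bst2 (chr8:71537568-71537627, minus strand): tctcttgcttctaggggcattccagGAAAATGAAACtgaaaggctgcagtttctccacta
Irf1 (chr11:53769898-53769957, plus strand): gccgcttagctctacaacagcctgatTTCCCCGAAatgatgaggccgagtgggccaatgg

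Values are FPKM, which corrects fragments for the length of the transcript and for the size of the library. Depth, estimated from the smallest steps of FPKM, was 7200000 to 12200000 fragments in the cKO libraries and 11100000 to 14400000 in the WT libraries. For a transcript of 2 kb, 1 FPKM then stands for 13 to 22 fragments in cKO and 20 to 25.9 in WT. Hnrnpl, the targeted gene, stood at 100.5, 81.5 and 85.2 FPKM in cKO, against 104, 93.8 and 102 FPKM in WT. Its groups overlapped and its log2 fold change was -0.17 (SE 0.13, limma adjusted p = 0.571). A gene-level value cannot resolve the floxed part of the gene, and most of the ovary is not germ cells. The part of either in the Hnrnpl values was not tested. The cKO replicate 1 library stood apart, holding the highest of the 6 values in 58.01% of all tested genes and in 9 of 18 tested members. Median-of-ratios scaling, which divides a library by its typical ratio to an average library, lowers that library by a factor of 1.175 and leaves it highest in 26.3% of tested genes and in 4 members. After this scaling Hnrnpl was lower in every cKO library than in any WT library, and its log2 fold change came to -0.26 (SE 0.0807, limma adjusted p = 0.15). Where scaling changes a call or an overlap, both values are given. All 10 pregranulosa markers and 12 of 14 germ cell and oocyte markers passed the filter on low values, and Stra8 was listed at 0 in all 6 libraries.

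The members spanned a wide range of levels, and many of the classical antiviral effectors were barely detected. In FPKM, which is per length, 5 of the 31 members averaged 10 or more over the 6 libraries. These were Bst2 (45.6 FPKM), Irf1 (41.6 FPKM), Ifi27 (33.5 FPKM), Ifitm3 (20.6 FPKM) and Trim25 (11.9 FPKM). Another 13 averaged between 1 and 10 FPKM. The remaining 13 averaged below 1 FPKM, namely Dhx58, Ddx60, Zbp1, Usp18, Ifit1, Ifit3, Oas2, Oasl1, Mx1, Mx2, Rsad2, Ifi44 and Xaf1. Their values in single libraries ran from 0 to 1.505 FPKM. Of these 13, 12 averaged below 1 FPKM in both groups, and Ddx60 averaged 0.758 FPKM in cKO and 1.02 FPKM in WT. Among the others only Isg15 had its group means on both sides of that line, with a mean of 0.729 FPKM in cKO and 1.63 FPKM in WT.

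**Figure D1:**
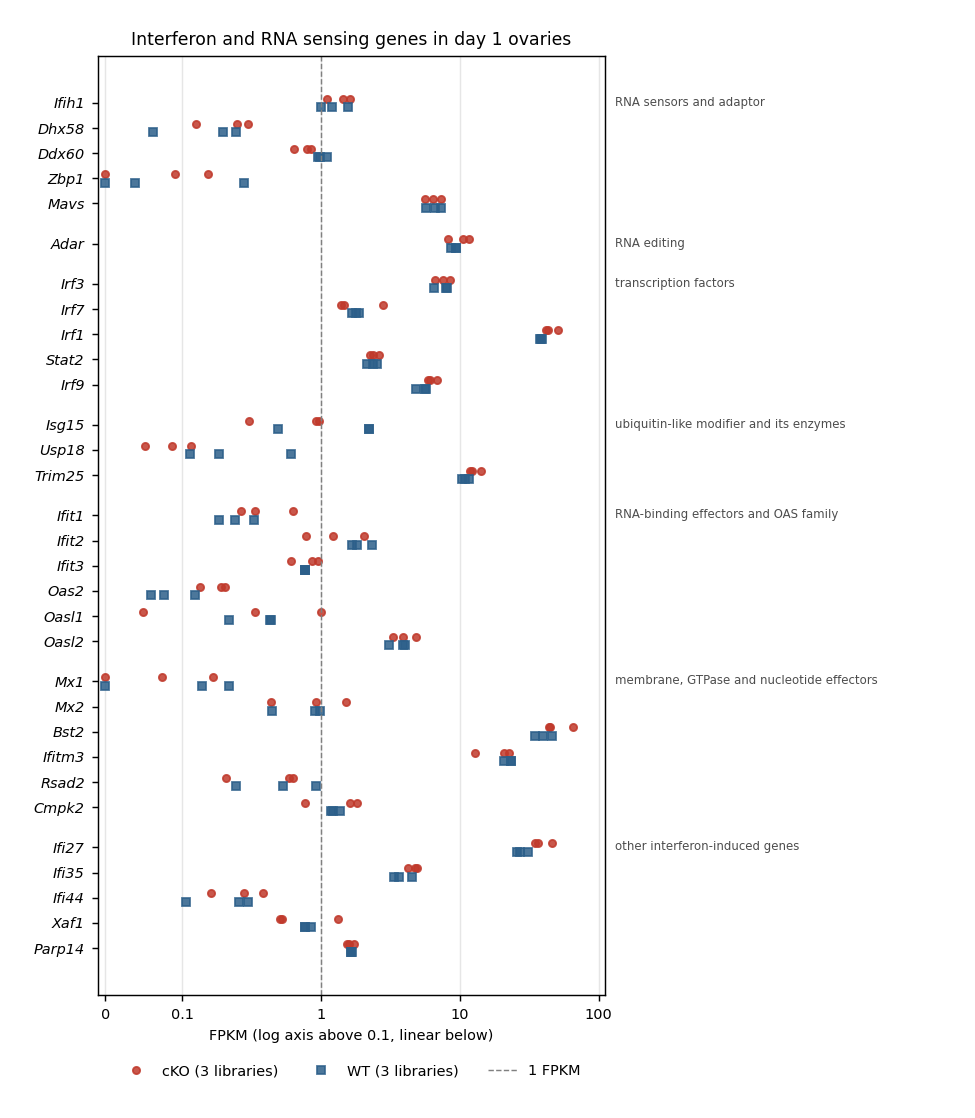
FPKM of each of the 31 members in the 3 cKO and the 3 WT libraries, grouped by role, on a symmetric log axis that is linear near 0. The 5 members at a mean of 10 FPKM or more stand to the right, the 13 with a mean below 1 FPKM lie around or left of the dashed line at 1 FPKM, and the groups intermingle in most rows.

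None of the members was called between cKO and WT. By limma on log2(FPKM + 1), 12442 genes averaging 1 FPKM or more were tested, 18 members among them. At an adjusted p under 0.05, 0 of 18 members were higher and 0 were lower in cKO, against 0.0482% of all tested genes higher, 0.0723% lower and 0.121% either way. After median-of-ratios scaling the member counts were again 0 and 0, against 0.764% of all tested genes higher, 0.53% lower and 1.29% either way. The share of all genes called was thus small either way. At an unadjusted p under 0.05 there was 1 member, Ifi27, against 14.2% of all tested genes, and after scaling there were 2, Ifi27 and Ifitm3, against 18.9%. The log2 fold changes of the 18 members ran from -0.55 to 0.47, 13 positive and 5 negative. Their median was 0.07, and that of all tested genes was 0.08. After scaling 10 were positive and 8 negative, with a median of 0.02 for the members and 0.00035 for all tested genes.

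The 95% intervals describe each tested member in whole ovary on the log2(FPKM + 1) scale. They set no limit on a change confined to germ cells, and the 13 members below 1 FPKM have none. For 17 of the 18 members the interval of the log2 fold change lay within 1 unit either side of 0, which is a 2-fold change on the log2(FPKM + 1) scale. The exception was Isg15, with an interval from -1.31 to 0.22. The scale understates the change of genes near 1 FPKM. With a pseudocount of 0.1 in place of 1, the log2 fold change of Ifit2 went from -0.35 to -0.57.

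**Figure D2:**
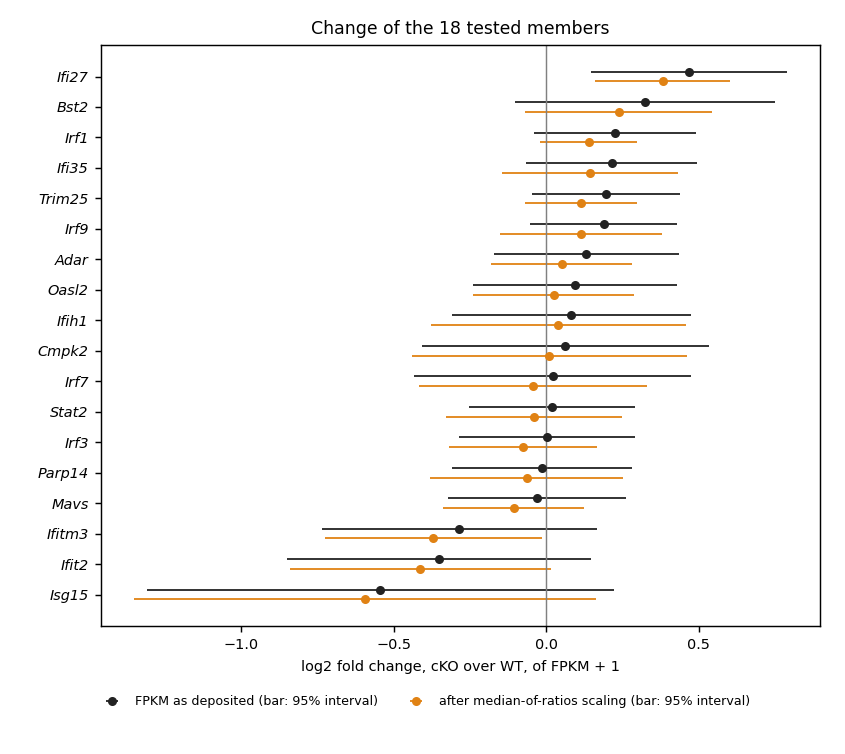
Log2 fold change on log2(FPKM + 1) of the 18 tested members, cKO over WT, with 95% intervals from limma, for FPKM as deposited and after median-of-ratios scaling. The intervals of Ifi27 (both ways) and of Ifitm3 (after scaling) leave out 0, those of the other tested members include it, and Isg15 has the widest interval.

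The cKO values of 4 tested members, Ifi27, Irf1, Irf9 and Trim25, all lay above the WT values. That is 22.2% of the 18, against 15.5% of all tested genes. For 0 of the 18 tested members did all cKO values lie below the WT values, against 7.03% of all tested genes. After scaling 2 members were higher without overlap, Ifi27 and Irf1, against 12.6% of all tested genes. Another 2 were then lower without overlap, Ifitm3 and Ifit2, against 13%. Leaving out cKO replicate 1 without scaling also gave 2 members lower, here Ifit2 and Irf7, against 17.8% of all tested genes. Leaving out cKO replicate 3, WT replicate 2 or WT replicate 3 gave 1, against 10.3%, 9.84% and 10.3% of all tested genes.

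Among the sensors, the adaptor was the one gene above 2 FPKM. Mavs, the mitochondrial adaptor of the RNA helicases (chromosome 2, 131234063 to 131248025, GRCm38), had 7.26, 6.39 and 5.58 FPKM in cKO, against 6.62, 7.34 and 5.71 FPKM in WT. Its groups covered much the same range (log2 fold change -0.03, interval -0.32 to 0.26, limma adjusted p = 0.925). Ifih1, which encodes MDA5, the sensor of long double-stranded RNA (chromosome 2, 62595618 to 62646255), had 1.1, 1.43 and 1.62 FPKM in cKO, against 1.57, 1.2 and 0.999 FPKM in WT. The Ifih1 groups overlapped as well (log2 fold change 0.08, interval -0.31 to 0.47, limma adjusted p = 0.837).

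The other sensors were too low to test. Ddx60, a helicase linked to RNA sensing, had 0.797, 0.633 and 0.843 FPKM in cKO, against 0.953, 0.988 and 1.11 FPKM in WT. Its cKO values all lay below its WT values. Dhx58, the regulatory helicase LGP2, ranged over 0.125 to 0.295 FPKM in cKO and 0.0626 to 0.244 FPKM in WT. Zbp1, the sensor of Z-form nucleic acid, ranged over 0 to 0.154 FPKM in cKO and 0 to 0.28 FPKM in WT, with a listed 0 in cKO replicate 1 and WT replicate 2.

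Adar (chromosome 3, 89714469 to 89753455), whose loss in mice sets off interferon signalling through MDA5, had 11.7, 8.21 and 10.6 FPKM in cKO, against 9.33, 8.69 and 9.31 FPKM in WT. The cKO values surround the WT values. Its log2 fold change was 0.13, with an interval from -0.17 to 0.43 (limma adjusted p = 0.657). It was 0.03 without cKO replicate 1, 0.26 without cKO replicate 2 and 0.05 after scaling. Adar makes a constitutive and an interferon-induced protein from the same gene, and a gene-level value does not separate them.

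Of the transcription factors Irf1 was by far the most abundant. Irf1, a factor induced by interferon gamma and other stimuli (chromosome 11, 53770014 to 53778374), had 50.5, 41.7 and 42.9 FPKM in cKO, against 38.4, 37.4 and 38.9 FPKM in WT. Every cKO library lay above every WT library, also after scaling, yet its log2 fold change of 0.23 (SE 0.11) was not called (limma adjusted p = 0.415, and 0.32 after scaling). Irf9, the DNA-binding partner of the Stat proteins (chromosome 14, 55603985 to 55610030), had 6.04, 5.9 and 6.81 FPKM in cKO, against 5.71, 5.57 and 4.82 FPKM in WT. Its groups stood next to each other without overlap, and after scaling they overlapped (log2 fold change 0.19, limma adjusted p = 0.446). Irf9 overlaps Rnf31 on the same strand, so that reads may be shared.

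Irf3 and Irf7, which switch on interferon genes, showed no separation with all libraries included. Irf3 (chromosome 7, 44997648 to 45002848) had 8.54, 7.51 and 6.56 FPKM in cKO, against 7.99, 6.52 and 8.04 FPKM in WT. Irf7 (chromosome 7, 141263183 to 141266499) had 2.79, 1.46 and 1.39 FPKM in cKO, against 1.66, 1.88 and 1.79 FPKM in WT. Both the highest and the lowest Irf7 value were in cKO. Without cKO replicate 1 the remaining Irf7 values in cKO lay below all WT values (log2 fold change -0.19, limma adjusted p = 0.532). Stat2, which brings an activation domain to Irf9 (chromosome 10, 128270498 to 128292853), had 2.35, 2.27 and 2.59 FPKM in cKO, against 2.54, 2.38 and 2.15 FPKM in WT. The log2 fold changes of Irf3, Irf7 and Stat2 were 0.00231, 0.02 and 0.02, with limma adjusted p of 0.994, 0.968 and 0.952, and turned sign after scaling. The use of strand in counting is not known, and Irf3, Irf7, Irf1, Adar and Ifi35 each overlap a gene on the opposite strand.

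The ubiquitin-like modifier Isg15 (chromosome 4, 156199424 to 156200818), a strongly interferon-induced gene, was low in every library. It had 0.924, 0.304 and 0.96 FPKM in cKO, against 2.2, 0.487 and 2.21 FPKM in WT. WT replicates 1 and 3 stood above all others, while WT replicate 2 lay among the cKO libraries. Its transcript is short, and these values rest on an estimated 3.7, 1.8 and 6.5 fragments in cKO and 17.6, 3.7 and 13.7 in WT. The log2 fold change of -0.55 (SE 0.33) was not called (limma adjusted p = 0.476). It was -0.91 without WT replicate 2 and -0.35 without cKO replicate 2, and without WT replicate 1 or 3 the gene was too low to test.

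Usp18, the protease that removes Isg15 from proteins and damps receptor signalling, ranged over 0.0514 to 0.116 FPKM in cKO and 0.113 to 0.608 FPKM in WT. The groups overlapped. The top of the WT range was replicate 1, one of the libraries high in Isg15, and the bottom was replicate 3, the other such library. The Usp18 values rest on an estimated 1, 2 and 1 fragments in cKO and 13.8, 4 and 2 in WT. Trim25, a ubiquitin ligase that acts in RNA sensing (chromosome 11, 88999403 to 89020294), had 14.2, 11.9 and 12.1 FPKM in cKO, against 10.4, 11 and 11.6 FPKM in WT. Its cKO values lay just above its WT values, and after scaling the groups overlapped (log2 fold change 0.19, limma adjusted p = 0.436, and 0.483 after scaling).

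The Ifit and Oas genes, whose products bind foreign RNA or make the messenger that activates RNase L, were low except for Oasl2. Ifit1, Ifit2 and Ifit3 lie near each other on chromosome 19, between 34550550 and 34650009. Ifit2 had 2.04, 0.778 and 1.21 FPKM in cKO, against 2.31, 1.8 and 1.68 FPKM in WT. In cKO only replicate 1 reached the WT range, and after scaling none did (log2 fold change -0.35, interval -0.85 to 0.15, limma adjusted p = 0.477, and 0.278 after scaling). Ifit3, which may share reads with its near copy Ifit3b, ranged over 0.609 to 0.953 FPKM in cKO and 0.761 to 0.769 FPKM in WT. Ifit1 ranged over 0.266 to 0.623 FPKM in cKO and 0.185 to 0.328 FPKM in WT, and the estimated fragments behind it were 11, 7 and 10 in cKO and 11.6, 8.1 and 5 in WT. Both were too low to test, and their groups overlapped.

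Oasl2, an enzymatically active member of the OAS-like genes in mouse (chromosome 5, 114896926 to 114912245), had 4.82, 3.87 and 3.3 FPKM in cKO, against 3.996, 3.89 and 3.08 FPKM in WT. Its groups overlapped (log2 fold change 0.09, interval -0.24 to 0.43, limma adjusted p = 0.777). Its neighbour Oasl1 ranged over 0.0495 to 1.002 FPKM in cKO and 0.217 to 0.438 FPKM in WT. Oas2 ranged over 0.135 to 0.204 FPKM in cKO and 0.0598 to 0.124 FPKM in WT, without overlap, and was too low to test.

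The membrane, GTPase and nucleotide effectors held both high and very low values. Bst2, or tetherin, which holds budding virus at the cell surface (chromosome 8, 71534255 to 71537472), had 65.1, 44.2 and 43.7 FPKM in cKO, against 39.6, 34.6 and 46.2 FPKM in WT. The cKO replicate 1 value stood alone, and the other cKO libraries lay within the WT range (log2 fold change 0.32, interval -0.10 to 0.75, limma adjusted p = 0.455). Ifitm3, which blocks fusion of virus with endosomes and also marks early germ cells (chromosome 7, 141009590 to 141010744), had 22.4, 12.8 and 20.8 FPKM in cKO, against 23.4, 23.2 and 20.7 FPKM in WT. The cKO replicate 2 library was far below the other 5. The log2 fold change was -0.29 with all libraries (limma adjusted p = 0.523) and -0.05 without that one. After scaling the groups no longer overlapped (log2 fold change -0.37, limma adjusted p = 0.247).

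Mx1 and Mx2 encode GTPases that trap viral particles. Mx1, defective in C57BL/6 and most other laboratory strains, ranged over 0 to 0.166 FPKM in cKO and 0 to 0.217 FPKM in WT, with a listed 0 in cKO replicate 3 and WT replicate 2. Mx2 ranged over 0.434 to 1.5 FPKM in cKO and 0.446 to 0.977 FPKM in WT. Rsad2, or viperin, which makes an antiviral nucleotide, and Cmpk2, which supplies its substrate, are neighbours on chromosome 12. Rsad2 ranged over 0.207 to 0.625 FPKM in cKO and 0.244 to 0.914 FPKM in WT. Cmpk2 (chromosome 12, 26469117 to 26479837) had 1.62, 1.81 and 0.769 FPKM in cKO, against 1.22, 1.36 and 1.18 FPKM in WT. Its cKO values lay on both sides of the WT values (log2 fold change 0.06, interval -0.41 to 0.53, limma adjusted p = 0.901).

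Ifi27 came nearest to a call among the members. This interferon-induced gene for a small hydrophobic protein (chromosome 12, 103434189 to 103440245) had 45.9, 34.5 and 36.7 FPKM in cKO, against 27.1, 25.6 and 30.9 FPKM in WT. Every cKO library lay above every WT library, before and after scaling. The means were 39.1 ± 6.05 FPKM in cKO and 27.8 ± 2.73 FPKM in WT (SD, n = 3 each). The log2 fold change was 0.47 (SE 0.14, interval 0.15 to 0.79), and over all genes the limma adjusted p was 0.222. After scaling it was 0.38 (SE 0.10, limma adjusted p = 0.0963), and over the alternatives that change 1 choice the adjusted p was 0.0963 to 0.531. Its relative Ifi27l2a, picked after values were seen because reads may be shared, had 16.1, 8.25 and 6.31 FPKM in cKO, against 7.5, 4.8 and 8.25 FPKM in WT. The Ifi27l2a groups overlapped.

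Ifi35 (chromosome 11, 101448412 to 101458701) had 4.88, 4.72 and 4.2 FPKM in cKO, against 3.35, 3.67 and 4.52 FPKM in WT. Its groups overlapped through WT replicate 3 (log2 fold change 0.21, limma adjusted p = 0.453). Parp14, an ADP-ribosyltransferase (chromosome 16, 35831892 to 35871518), had 1.53, 1.59 and 1.73 FPKM in cKO, against 1.63, 1.66 and 1.63 FPKM in WT. The cKO values lay on both sides of the WT values (log2 fold change -0.01, interval -0.31 to 0.28, limma adjusted p = 0.969). Xaf1, a promoter of apoptosis, ranged over 0.501 to 1.32 FPKM in cKO and 0.767 to 0.839 FPKM in WT. Ifi44 ranged over 0.16 to 0.378 FPKM in cKO and 0.106 to 0.299 FPKM in WT.

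**Figure D3:**
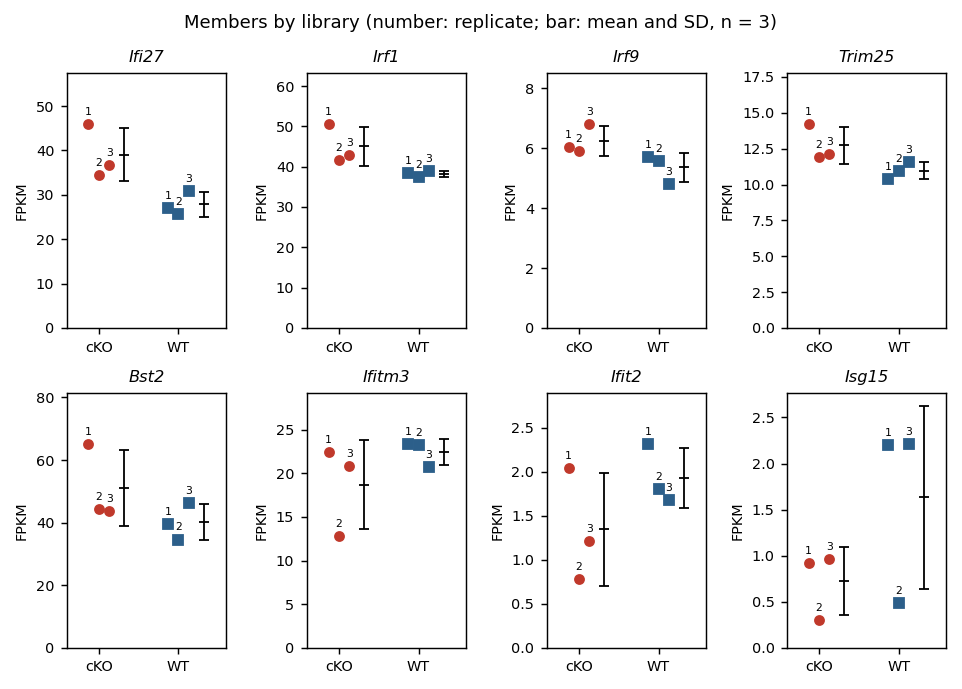
FPKM of 8 members in each library, cKO left of WT, with the mean and SD (n = 3 each). Ifi27, Irf1, Irf9 and Trim25 have cKO values above all WT values, Bst2 is set apart by cKO replicate 1 and Ifitm3 by cKO replicate 2, and Isg15 is split within WT.

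Interferon genes themselves were nearly absent. Of 15 listed, 11 stood at 0 in all 6 libraries, Ifnb1 among them, and 0 reached the test. The highest single value was 0.53 FPKM, for Ifng in cKO replicate 1. The receptors were well detected. Ifnar2, a chain of the type I receptor, had 24.2, 13 and 16.8 FPKM in cKO, against 13.2, 15.5 and 15.2 FPKM in WT. The other chain, Ifnar1, picked for its role after values were seen, had 26.3, 20.2 and 21.8 FPKM in cKO, against 22.2, 21 and 20.4 FPKM in WT. Both overlapped between groups (limma adjusted p = 0.589 for Ifnar2 and 0.747 for Ifnar1).

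In all, 159 further genes of the pathway were found in the table, and 95 were tested. Limma called 0 of them higher and 0 lower, with 11 at an unadjusted p under 0.05, which is 11.6% of the 95, against 14.2% of all tested genes. After scaling 0 were higher and 1 was lower, Oas1c. Of 14 tested receptor, JAK-STAT and feedback genes 0 were called, with a median log2 fold change of 0.07, and -0.01 after scaling. The medians of all tested genes, 0.08 and 0.00035 after scaling, stand beside this and the next 3 lists. The smallest p there belonged to Stat3, Ifnar2 and Pias1, an inhibitor of Stat proteins, with log2 fold changes of 0.26, 0.24 and 0.15 (limma adjusted p = 0.45, 0.589 and 0.565). With cKO replicate 1 left out, the log2 fold changes were 0.12 for Stat3 and 0.02 for Ifnar2. Ifnar2 was at 0.44 without cKO replicate 2.

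Of 14 tested sensing and signalling genes 0 were called, with a median log2 fold change of 0.06, and -0.01 after scaling. There Irf5, a factor downstream of Toll-like receptors, had 2.97, 3.1 and 1.88 FPKM in cKO, against 4.71, 3.81 and 4.69 FPKM in WT. All its cKO values lay below its WT values (log2 fold change -0.58, SE 0.16, limma adjusted p = 0.201, and 0.0902 after scaling). Irf5 overlaps Tnpo3 on the opposite strand. The kinase Tbk1, which activates Irf3, and the adaptor Traf3 had log2 fold changes of 0.28 and 0.20 (limma adjusted p = 0.35 and 0.39).

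Of 26 tested genes for double-stranded RNA binding and nucleases 0 were called, with a median log2 fold change of 0.10, and 0.02 after scaling. Adad2, a germ cell relative of the Adar enzymes, had 7.15, 4.73 and 4.23 FPKM in cKO, against 3.47, 2.82 and 2.38 FPKM in WT. Its groups did not overlap, before or after scaling (log2 fold change 0.70, limma adjusted p = 0.191). Rnaseh2c, a subunit of RNase H2, and Dicer1, which cuts double-stranded RNA into small RNAs, had log2 fold changes of 0.41 and 0.32 (limma adjusted p = 0.207 and 0.254). Of 41 other interferon-induced genes 0 were called without scaling, with a median of 0.08, and -0.0033 after scaling. The smallest p belonged to Oas1c, Slfn9 and the GTPase Irgm1. Slfn9 and Irgm1 had log2 fold changes of -0.47 and 0.55 (limma adjusted p = 0.188 and 0.218).

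**Figure D4:**
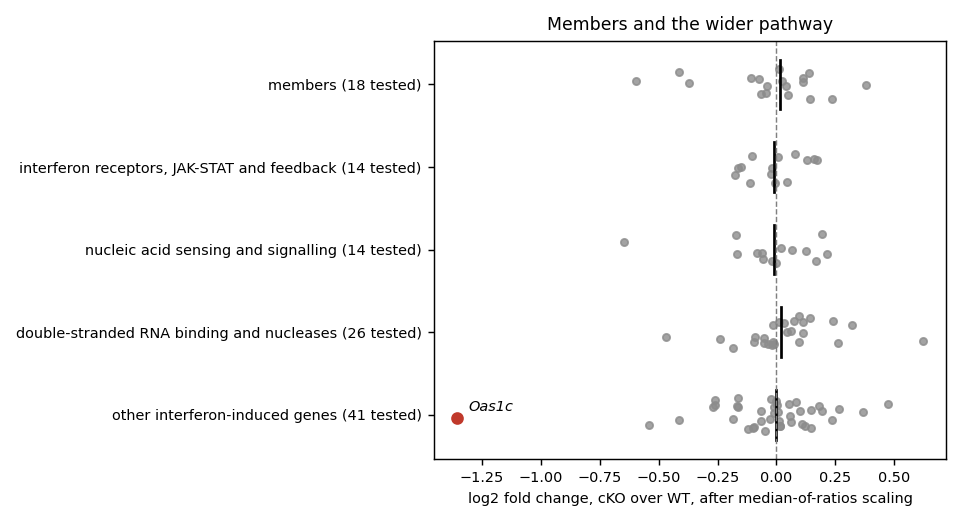
Log2 fold change on log2(FPKM + 1), cKO over WT, after median-of-ratios scaling, for the 18 tested members and the 95 tested pathway genes in 4 lists, 1 point a gene, with a black bar at each median. The medians lie close to 0, and Oas1c, the 1 gene called, is marked at -1.35.

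Oas1c (chromosome 5, 120800194 to 120812540) belongs to a mouse cluster of similar Oas1 genes. It had 0.66, 0.0221 and 0.937 FPKM in cKO, against 2.81, 2.98 and 2.26 FPKM in WT. All cKO libraries lay below all WT libraries. The log2 fold change was -1.30 (SE 0.25, limma adjusted p = 0.101) as deposited and -1.35 (SE 0.24, limma adjusted p = 0.043) after scaling. The call after scaling held without cKO replicate 3 (limma adjusted p = 0.0274). It ended without cKO replicate 1 (0.0931), cKO replicate 2 (0.0668), WT replicate 1 (0.16), WT replicate 2 (0.159) or WT replicate 3 (0.127).

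The other Oas1 copies and a pair of oocyte genes were picked after values were seen, because reads may be shared among the copies and Oas1d is known from mouse oocytes. Oas1d had 0.711, 0.653 and 0.21 FPKM in cKO, against 2.29, 2.29 and 1.1 FPKM in WT (log2 fold change -0.91, limma adjusted p = 0.189, and 0.0915 after scaling). Oas1e had 0.36, 0.213 and 0.504 FPKM in cKO, against 1.55, 0.952 and 0.672 FPKM in WT and was too low to test. In both, all cKO values lay below the WT values. Oas1h had 4.98, 2.22 and 2.49 FPKM in cKO, against 3.74, 2.8 and 2.22 FPKM in WT, with overlap, and Oas1f was listed at 0 in all libraries. Zp3, of the egg coat, had 2.05, 2.41 and 2.12 FPKM in cKO, against 9.47, 9.63 and 5.69 FPKM in WT. Zp3 was called lower (log2 fold change -1.51, limma adjusted p = 0.0437, and 0.00889 to 0.15 over the alternatives that change 1 choice). The call ended without cKO replicate 2 (limma adjusted p = 0.136), WT replicate 1 (0.15) or WT replicate 2 (0.15), without a filter (0.106), without the intensity trend (0.054) and with the replicate block (0.0617). Gdf9, an oocyte growth factor, had 2.81, 2.5 and 2.52 FPKM in cKO, against 7.03, 5.5 and 4.1 FPKM in WT (limma adjusted p = 0.114, and 0.039 after scaling). That call held without WT replicate 3 (limma adjusted p = 0.0425) and ended without cKO replicate 1 (0.0945), cKO replicate 2 (0.109), cKO replicate 3 (0.0603), WT replicate 1 (0.119) or WT replicate 2 (0.133). The 14 germ cell and oocyte markers summed to 202 to 359 FPKM in cKO and 164 to 178 FPKM in WT. As deposited 0 were called higher and 1 lower, and after scaling 4 higher and 2 lower. The 2 called lower after scaling were Zp3 and Gdf9, and the 4 called higher were Dazl, Sohlh1, Kit and Tex15. Those 4 had log2 fold changes of 1.28, 0.92, 0.69 and 0.96 as deposited. Lhx8 and Sycp3, at 0.68 and 0.80, also had cKO values above all WT values but were not called. In Ddx4, Figla, Nobox and Mael the groups overlapped. The median of the tested germ cell and oocyte markers was 0.64, and 0.56 after scaling. The part of these markers in the Oas1c values was not tested. In whole ovaries, fewer cells of a type and less RNA per cell cannot be told apart.

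**Figure D5:**
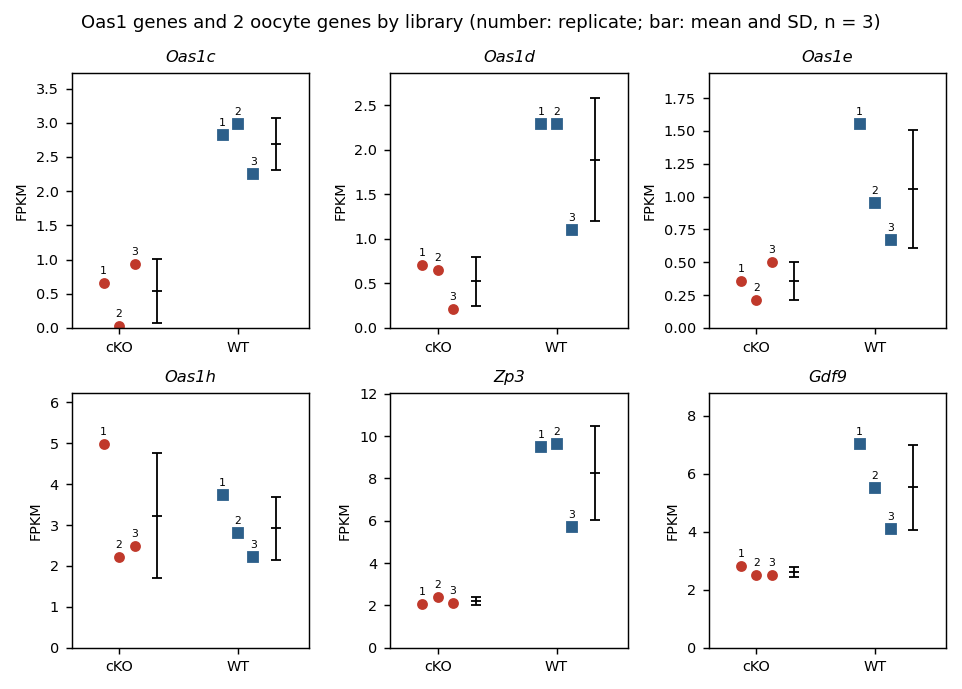
FPKM of 4 Oas1 genes and of the oocyte genes Zp3 and Gdf9 in each library, cKO left of WT, with the mean and SD (n = 3 each). Oas1c, Oas1d, Oas1e, Zp3 and Gdf9 have cKO values below all WT values, and Oas1h overlaps. Of the germ cell markers not shown, Dazl, Sohlh1, Lhx8, Kit, Sycp3 and Tex15 have cKO values above all WT values. Ddx4, Figla, Nobox and Mael overlap.

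Of 17 macrophage and leukocyte markers 10 were tested and 0 were called, and they summed to 26.6 to 33.5 FPKM in cKO and 29 to 39 FPKM in WT, led by Lyz2 and Tyrobp. None of 11 markers of T, B and NK cells reached a mean of 1 FPKM, and Nkg7 and Ncr1 were listed at 0 in all libraries. Of 7 markers of plasmacytoid dendritic cells, which produce much interferon in infection, 2 were tested, Bst2 and Tcf4, and the list summed to 62.3 to 84.8 FPKM in cKO and 56 to 66.6 FPKM in WT, most of it Bst2. Tcf4, which other cells also express, had 17.9, 17 and 19.1 FPKM in cKO, against 20.8, 20.8 and 19.4 FPKM in WT. Its cKO values all lay below its WT values (limma adjusted p = 0.454, and 0.215 after scaling). Siglech, a defining marker of these cells, was at 0.274 FPKM in cKO replicate 1 and at 0 in the other libraries. Cox6a2 had 0.549, 0.36 and 0.326 FPKM in cKO and 0 in every WT library. Runx2 went the other way, with 0.219 to 0.355 FPKM in cKO and 0.485 to 0.545 FPKM in WT. Ccr9 and Klk1 overlapped between groups. These low markers were not tested.

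The summed levels of other marker lists are given for the cell types around the germ cells. Endothelial markers, 12 of 12 tested, summed to 98.6 to 127 FPKM in cKO and 126 to 156 FPKM in WT. Erythroid markers, 5 of 6 tested, summed to 463 to 534 FPKM in cKO and 772 to 836 FPKM in WT. Stroma markers, 10 of 10 tested, summed to 809 to 889.8 FPKM in cKO and 1055 to 1105 FPKM in WT. The endothelial sums overlapped, the erythroid and stroma sums were lower in every cKO library, and 0 genes of these lists were called as deposited. Each erythroid gene taken alone overlapped between groups as deposited, and after scaling Hbb-bt and Alas2 were lower without overlap. After scaling the endothelial sums were 102 to 108 FPKM in cKO and 132 to 158 FPKM in WT, without overlap, and 3 stroma genes were called lower. Surface epithelium markers, 8 of 8 tested, summed to 139 to 218 FPKM in cKO and 227 to 250.4 FPKM in WT, with 1 called lower as deposited and 3 after scaling. Pregranulosa markers, 10 of 10 tested, summed to 364 to 452 FPKM in cKO and 322 to 329 FPKM in WT. The part of these cell types in the members' values was not tested.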

How the data were processed

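For 6 libraries the authors deposited FPKM, that is fragments per kilobase of transcript relative to library size, in 1 table whose column names match the sample titles. Per the submitters' processing notes, the build was mm10, and STAR 2.7.11a, HISAT2 2.2.1 and featureCounts 2.0.6 are named with no roles. The program behind FPKM and the annotation are not given in the sources used here. FPKM is relative, so abundant transcripts can shift a whole library. Per the labels, libraries came from amplified cDNA, which adds noise at low values. Depth was estimated from the steps of low FPKM in 2437 genes with 1 annotated transcript of at least 1500 bp (GENCODE M21), assuming fragments of 200 bp.

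Genes averaging 1 FPKM or more were tested on log2(FPKM + 1) with limma 3.58.1 in R 4.3.3 (intensity trend, two-sided, Benjamini-Hochberg over 12442 genes, called under 0.05). The fit was tested on simulated data without scaling or a replicate block. The planted changes were larger than any log2 fold change of the members, so finding changes of their size was not tested. The depth estimate was tested on simulated counts. All 31 members are named, with each library's value where a group averages 1 FPKM or more. Of each pathway list, the 3 tested genes with the smallest p and any gene called with or without scaling are named. Members and lists were chosen with earlier results of these data known. Alternatives were a pseudocount of 0.1, no filter, a filter at 5 FPKM, median-of-ratios scaling, quantile normalization, no trend, a replicate block, and each library left out, the last also after scaling. Positions and promoters are RefSeq's for GRCm38.p6.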

Additional observations from a re-analysis of the deposited data

How the results depend on the processing

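In every alternative run, limma called 0 members higher and 0 lower. Without a filter all 31 members entered the fit, and 0 of the 13 below 1 FPKM had an unadjusted p under 0.05. Over all genes 15 were called, and the alternatives called 2 (replicate block, and without WT replicate 1 or 2) to 236 (quantile normalization). Members higher without overlap numbered 4, but 2 after median-of-ratios scaling, 1 after quantile normalization and 5 of 31 with no filter. The shares of all tested genes in these 3 settings were 12.6%, 12.2% and 11.6%. With 1 library left out such members numbered 4 to 6, against 16.9% to 27.5% of all tested genes. Members lower without overlap numbered 0, but 2 after median-of-ratios scaling, 1 after quantile normalization, 1 with no filter and 0 to 2 with 1 library left out, against 13%, 12.9%, 7.05% and 8.54% to 17.8% of all tested genes. The members' median log2 fold change of 0.07 was 0.19 with the filter at 5 FPKM, which tests fewer genes. The median of all genes under that filter is not given. Of all genes tested there, 17.7% were higher and 5.68% lower without overlap. With 1 library left out the members' median was 0.0209 to 0.141. Pathway genes called lower numbered 0, but 1 after median-of-ratios scaling, 1 after quantile normalization, and 0 to 1 after scaling with 1 library left out, an alternative chosen after seeing the data. Log2 fold changes near 0 turned sign. After median-of-ratios scaling Irf3 was at -0.076, Irf7 at -0.0435 and Stat2 at -0.0405, and after quantile normalization Irf3 was at -0.0825 and Stat2 at -0.00322. With 1 library left out the log2 fold changes were -0.00132 to 0.179 for Ifih1, -0.112 to 0.0529 for Mavs, -0.085 to 0.0865 for Irf3, -0.194 to 0.137 for Irf7, -0.0263 to 0.0586 for Stat2, -0.0209 to 0.197 for Oasl2, -0.0643 to 0.268 for Cmpk2 and -0.0433 to 0.011 for Parp14. The cause was not tested. Whether replicate numbers pair the libraries could not be decided, since all correlations of deviations lay near 0, from -0.0664 to 0.0676. Deviations of same-numbered libraries correlated at -0.011, 0.0392 and 0.0676. For cKO replicates 2 and 3 the best match had the same number, and cKO replicate 1 correlated best with WT replicate 2 (0.0278). With the replicate block 0 members and 0 pathway genes were called, and the members' median was 0.07. Depth leaves members below 1 FPKM at few fragments, where a difference may not be detectable.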
